A study of Vitis vinifera with 15 samples.

Results

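The scion leaf of “Gaglioppo” grafted onto 41 B Mgt (GAG-41B) was compared with the same scion grafted onto 1103 Paulsen (GAG-1103P), using the 6 libraries whose labels carry these names out of 15 in the series. “Gaglioppo” is a red-berried cultivar of Vitis vinifera, 41 B Mgt is a hybrid of V. vinifera and V. berlandieri, and 1103 Paulsen is a hybrid of V. berlandieri and V. rupestris. The other 9 libraries carried the same scion clone on 3 further rootstocks, Kober 5BB (GAG-KOB), 3309 Couderc (GAG-3309C) and 17-37Mgt (GAG-17-37). All leaves came from field-grown vines of a single vineyard, managed alike, and a single collection. Each combination had 3 libraries (A, B and C), and the RNA of a library came from 3 plants that gave 2 leaves each and were pooled. The combinations stood in adjacent blocks, so that the rootstock and the place in the vineyard cannot be told apart in these data.

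A graft joins the shoot of a cultivar to the root of another genotype, and water, minerals, hormones and some RNAs pass the union. Grapevine leaves answer pathogens, wounding and UV light by making stilbenes. Phenylalanine ammonia-lyase opens the phenylpropanoid pathway, and stilbene synthase and chalcone synthase compete for the same substrates, the former leading to resveratrol and the latter to flavonoids. Jasmonate, ethylene and salicylic acid are the hormones best known for steering such defence responses, whereas abscisic acid (ABA) is known for closing stomata under water deficit.

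The deposited values were FPKM (fragments per kilobase of exon, scaled to the mapped fragments of a library), calculated and scaled between libraries by the authors for 29970 genes. They hold no read counts, and the spread between the 3 libraries of a combination was used as the error of a value. A gene was tested if its mean over the 15 libraries was at least 0.1 FPKM, which left 21364 genes, and the log2(FPKM + 0.1) values were compared with limma. Fold changes on that scale understate the change of genes with low FPKM. A DEG had an adjusted p of 0.05 or less (two-sided, Benjamini-Hochberg over all genes tested), and a 4-fold DEG was in addition changed by 2 or more on the log2 scale. Over the 17852 genes whose mean reached 1 FPKM, the median SD of the log2 values was 0.111 in GAG-1103P and 0.117 in GAG-41B, while the median size of the difference between both means was 0.683. FPKM values summed to between 1652236 and 1703081 per library in GAG-1103P and to between 2208240 and 2221125 in GAG-41B. Replicate A stood apart in every combination in the steps of its low values. Low values (under 0.3 FPKM) of the B and C libraries were whole-number ratios of those of GAG-1103P replicate B, within 1%, in 81.4 to 86.2% of the genes shared, whereas those of the A libraries did so in 12.2 to 15.6%. Counts of DEGs are therefore also given for B and C alone, a choice made after seeing the data. By the same ratios, a read was worth 1.48 times as much FPKM in GAG-41B B and 1.44 times as much in GAG-41B C as in GAG-1103P B, so that at the same FPKM a value rests on fewer reads in these GAG-41B libraries.

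In GAG-41B vs. GAG-1103P, 14703 genes were DEGs, which is 68.8% of the genes tested. Of these, 7355 (34.4%) were higher and 7348 (34.4%) were lower in GAG-41B, and the median over all genes tested was 0.00. With B and C alone, 7501 were higher and 7460 lower. When all libraries were scaled to the same FPKM total, which moved the median over all genes by −0.38, the split was 4904 higher and 10538 lower. Among the 4-fold DEGs, 1869 (8.75% of the genes tested) were higher and 1024 (4.79%) lower, together 13.5%, or 1395 and 1623 with the same FPKM total. The 6 values of a gene did not overlap between the groups in 72.2% of all genes tested, so that such a separation alone says little about a single gene. Of the 2893 4-fold DEGs, 2838 had groups that did not overlap. The study's table of changed genes, complete at hand, annotates 2363 of the 4-fold DEGs. The gene lists below were drawn from that table by words in its annotations. Since it holds genes with a 4-fold change in these same libraries, most list members had to be DEGs, and their counts are not independent evidence. The direction in which the members of a list moved is described here. The reference for it is the 2692 tested and annotated genes of that table, of which 1701 (63.2%) were higher and 938 (34.8%) lower in GAG-41B (median 2.18), rather than the near-equal split over all genes tested, and a list with about these shares does not stand apart from its source. In none of the 53 lists did most members turn to the other direction with the same FPKM total, the same median or quantile normalization. All members of the lists passed the filter on low values. Values of a gene are given below for replicates A, B and C in this order, with GAG-41B before GAG-1103P unless stated. The values of GAG-41B and of GAG-1103P did not overlap in any of the genes whose 6 values are given. For genes named as the largest change of a list this was a condition of the choice, and no support for it.

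**Figure D1:**
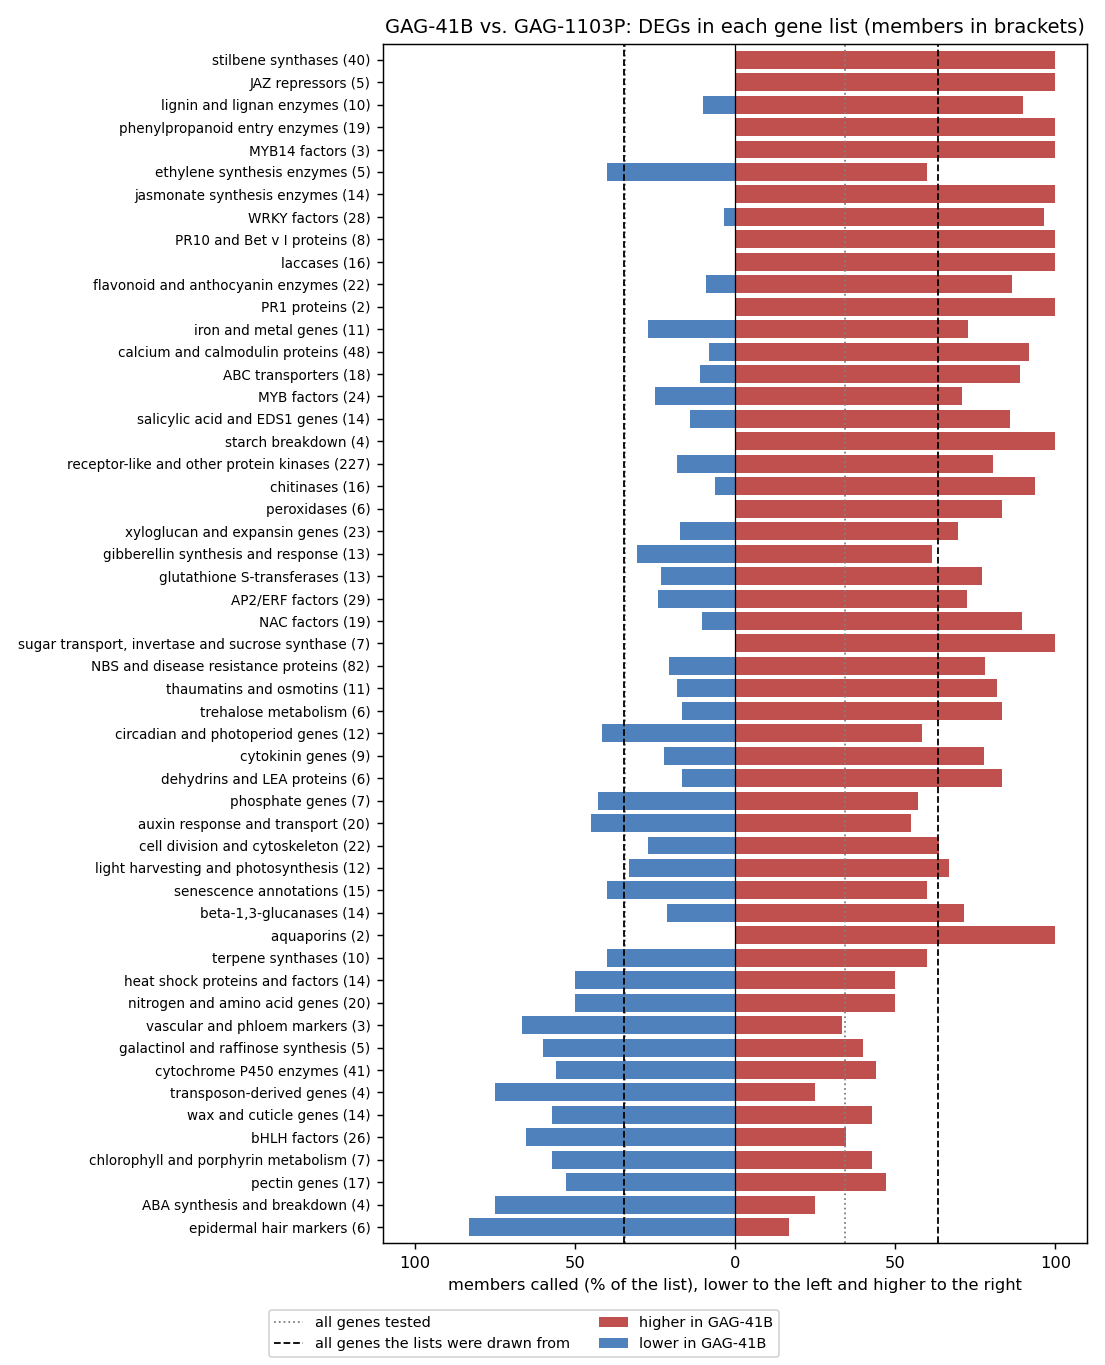
Share of each gene list (in % of its members, whose number stands in brackets) that was higher (bars to the right) or lower (bars to the left) in GAG-41B than in GAG-1103P at an adjusted p of 0.05 or less, with dotted lines at the 34.4% of all genes tested in either direction and dashed lines at the shares of the table from which the lists were drawn (63.2% higher, 34.8% lower). The stilbene synthases (40 higher, 0 lower) and WRKY factors (27 higher, 1 lower) lie to the right, while the bHLH factors (9 higher, 17 lower) and epidermal hair markers (1 higher, 5 lower) lie mostly to the left.

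The entry of the phenylpropanoid pathway was higher in GAG-41B throughout. All 19 annotated phenylalanine ammonia-lyases (PAL), cinnamate 4-hydroxylases and 4-coumarate-CoA ligases were DEGs with more FPKM in GAG-41B, at a median log2 fold change of 4.29. The PAL with the largest increase, Vv16s0039g01100, had 274, 296 and 298 FPKM in GAG-41B A, B and C and 3.47, 3.21 and 3.53 FPKM in GAG-1103P (log2 fold change 6.37 ± 0.07 (SE), limma adjusted p = 8.87e-16). The groups lay far apart, with replicates within each that differed little. Trans-cinnamate 4-monooxygenase Vv06s0004g08150, which hydroxylates cinnamic acid in the next step, had 1425, 1672 and 1653 FPKM against 75.4, 84.7 and 82.8 FPKM (log2 fold change 4.29). This cytochrome P450, named after its values were seen, had the most FPKM of the list in GAG-41B. PAL gene Vv08s0040g01710, also named after its values were seen, had the most of its kind. It had 662, 757 and 732 FPKM against 17.7, 20.2 and 18.8 FPKM (log2 fold change 5.24). Summed over the 19 genes, a GAG-41B library held between 4224 and 4573 FPKM and a GAG-1103P library between 236 and 245.

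All 40 stilbene synthases of the list were higher in GAG-41B, 39 of them at least 4-fold, and their median log2 fold change was 6.74. Together they had between 54866 and 56378 FPKM per GAG-41B library and between 381 and 418 per GAG-1103P library, a 141-fold difference of the means. They made up 2.51% of all FPKM in GAG-41B and 0.0235% in GAG-1103P. VvSTS16 (Vv16s0100g00920) had 311, 308 and 311 FPKM in GAG-41B and 3.06, 3.30 and 3.53 FPKM in GAG-1103P (log2 fold change 6.51 ± 0.07 (SE), limma adjusted p = 8.68e-16). For VvSTS48 (Vv16s0100g01200) the values were 603, 573 and 575 against 5.89, 6.95 and 5.72 FPKM (log2 fold change 6.54). In both genes the GAG-41B replicates lay close together and none came near a GAG-1103P value. Most of the sum came from Vv16s0100g00950, with 30289, 30649 and 32389 FPKM in GAG-41B and 181, 169 and 167 FPKM in GAG-1103P. The largest increase of the list was that of the resveratrol synthase Vv16s0100g01070, from 1.21, 1.48 and 0.697 FPKM in GAG-1103P to 244, 231 and 229.8 FPKM in GAG-41B (log2 fold change 7.63). MYB14 is known for activating stilbene synthase promoters in grapevine, and 3 genes were listed as MYB14 factors by their annotation alone. Whether each of these 3 genes has that role was not tested. Vv05s0049g01020 had 663, 757 and 761 FPKM in GAG-41B against 37.9, 41.02 and 44.2 FPKM in GAG-1103P (log2 fold change 4.14 ± 0.08 (SE), limma adjusted p = 1.41e-13). Vv07s0005g03340 had 493, 554 and 542 against 33.6, 39.7 and 38.1 FPKM and the weakly expressed Vv12s0134g00490 had 7.05, 8.19 and 8.88 against 0.932, 0.846 and 0.741 FPKM, so that all 3 rose without overlap.

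Stilbene synthase genes are near-identical copies in tandem, and how reads that match several copies were shared among them is not given in the sources used here, so that the FPKM of a single copy is less certain than their sum. On chromosome 16, scaffold 100, the identifiers from Vv16s0100g00750 to Vv16s0100g01200 number 39, of which 32 are annotated as stilbene synthases. Of the 7 others, 4 were below the limit for testing and 3 were 4-fold higher in GAG-41B. Vv16s0100g00860, annotated as chalcone synthase, is among these, with 2333, 2267 and 2286 FPKM in GAG-41B and 15.5, 16.3 and 16.7 FPKM in GAG-1103P (log2 fold change 7.14). Read as neighbours, the 35 tested genes of this stretch formed the longest run of 4-fold DEGs of 1 direction in the genome, with log2 fold changes from 3.96 to 7.63. On chromosome 10, scaffold 42, 10 identifiers spanned 7 annotated stilbene synthases, while the chromosome 15 member Vv15s0021g02170 had no such neighbour. This last gene was the only one of the list below 4-fold, with 0.917, 0.324 and 0.822 FPKM in GAG-41B and 0.0813, 0.175 and 0.235 FPKM in GAG-1103P (log2 fold change 1.52), and its call was lost with B and C alone.

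**Figure D2:**
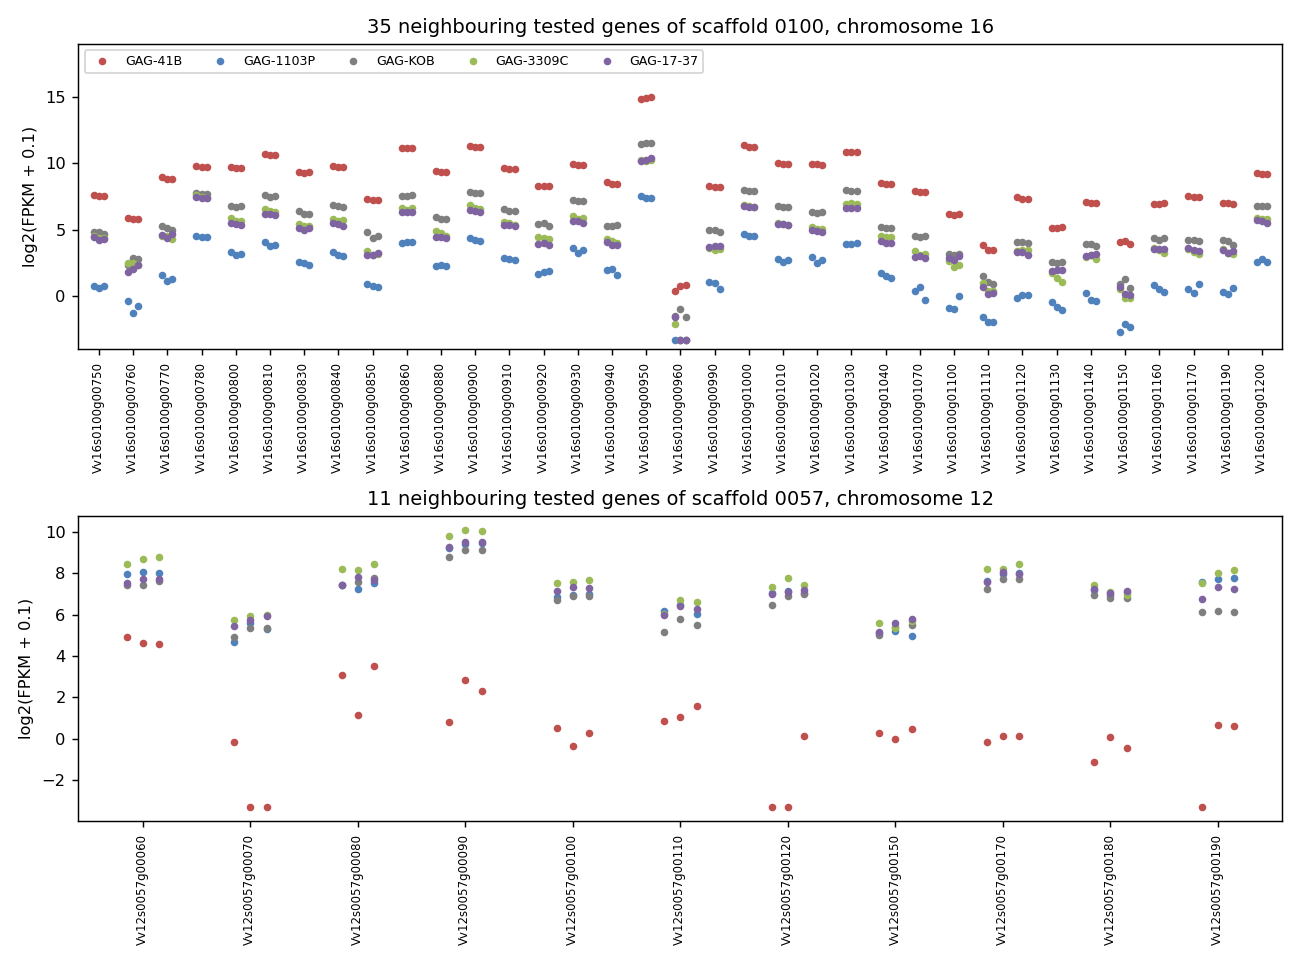
FPKM of neighbouring genes in the 15 libraries on a log2 scale, 1 point per library and 1 color per combination, in identifier order. Above, in the stilbene synthase stretch of chromosome 16, the mean of GAG-41B is the highest and that of GAG-1103P the lowest across the 35 genes, Vv16s0100g00960 being listed at 0 in the 3 GAG-1103P libraries and in some others. Below, in 11 genes of chromosome 12, GAG-41B lies beneath all other combinations.

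The neighbouring branches of phenolic metabolism mostly rose with the stilbene genes. Of 22 genes for flavonoid and anthocyanin enzymes, 19 were higher and 2 lower in GAG-41B (median 3.14). Among members with a mean of 1 FPKM or more over the 6 libraries, the largest decrease was that of the dihydroflavonol reductase-like Vv15s0048g01010, with 41.3, 44.9 and 40.5 FPKM in GAG-41B and 225, 232 and 229.5 FPKM in GAG-1103P (log2 fold change −2.44 ± 0.08 (SE), limma adjusted p = 9.73e-12). Laccases, which oxidize monolignols and other phenols, were higher in 16 of 16 cases. Their sum was between 346 and 391 FPKM in GAG-41B and between 21.2 and 24.6 FPKM in GAG-1103P. Vv18s0001g00730 led the list with 5.35, 3.94 and 4.86 FPKM against 0, 0.167 and 0.178 FPKM (log2 fold change 4.62). It was among the weakly expressed members, and GAG-1103P replicate A was listed at 0. Of 10 lignin and lignan genes 9 rose, with dirigent proteins, which guide the coupling of phenoxy radicals, in the lead. Dirigent protein Vv06s0004g01020 had 553, 507 and 515 FPKM in GAG-41B and 15.1, 14.8 and 13.9 FPKM in GAG-1103P (log2 fold change 5.16 ± 0.09 (SE), limma adjusted p = 5.12e-14). The only lower member of that list was a cinnamoyl-CoA reductase, Vv16s0039g01670, at 2.91, 2.48 and 3.34 against 36.1, 37.996 and 38.3 FPKM (log2 fold change −3.65). Terpene synthases moved both ways, with 6 of 10 higher and 4 lower. Copalyl diphosphate synthase Vv07s0151g01070 had 37.1, 41.7 and 39.9 FPKM in GAG-41B and 1.47, 1.46 and 1.79 FPKM in GAG-1103P, whereas the ent-kaurene synthase Vv00s1319g00010 had 0, 0.192 and 0 against 3.44, 3.42 and 3.99 FPKM. These successive enzymes of diterpene synthesis thus differed in opposite directions (log2 fold changes 4.57 and −4.70). Cytochrome P450 genes also split, with 18 higher and 23 lower. CYP715A1 (Vv16s0050g00480) rose from 0.0913, 0.156 and 0.301 FPKM in GAG-1103P to 11.5, 14.4 and 14.03 FPKM in GAG-41B, while CYP82C1p (Vv07s0255g00090) fell from 5.76, 6.59 and 5.98 to 0.0420, 0.180 and 0.220 FPKM. Glutathione S-transferases, which conjugate toxic compounds to glutathione, rose in 10 of 13 cases. GSTU7 (Vv16s0039g01070) was among the 10 genes with the largest gain in FPKM, at 6274, 6601 and 6564 against 397, 457 and 425 FPKM (log2 fold change 3.93).

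Pathogenesis-related (PR) proteins, which plants secrete or store against microbes, were mostly higher in GAG-41B. Both PR1 genes rose, Vv03s0088g00710 to 295, 303 and 299.6 FPKM from 13.3, 16.5 and 16.2 FPKM (log2 fold change 4.28 ± 0.07 (SE), limma adjusted p = 2.74e-14) and Vv03s0088g00810 to 172, 162 and 176 FPKM from 48.8, 44.2 and 48.4 FPKM (log2 fold change 1.85). All 8 listed PR10 and Bet v I genes were higher (median 3.25). PR10 gene Vv05s0077g01690 had 1062, 1129 and 1104 FPKM in GAG-41B and 19.5, 22.4 and 17.2 FPKM in GAG-1103P (log2 fold change 5.80). Chitinases, which cut the chitin of fungal walls, rose in 15 of 16 cases (median 2.39). Class IV chitinase Vv05s0094g00220 had 116, 137 and 144 against 4.09, 4.46 and 4.26 FPKM (log2 fold change 4.92 ± 0.09 (SE), limma adjusted p = 7.67e-14). Among the thaumatins and osmotins 9 of 11 rose and 2 fell. Thaumatin Vv02s0025g04230 had 112, 121 and 114 FPKM in GAG-41B and 1.60, 1.90 and 1.16 in GAG-1103P, while Thaumatin SCUTL1 (Vv04s0023g03540) had 19.6, 20.96 and 20.4 and 148, 149 and 136 FPKM, respectively. The latter was thus lower in every GAG-41B library (log2 fold change −2.82). Beta-1,3-glucanases, partners of chitinases on fungal walls and also enzymes of callose turnover, were less uniform, with 10 higher, 3 lower and 1 neither. Vv08s0007g06060 rose to 295, 256 and 254 FPKM from 26.3, 23.1 and 24.2 FPKM, and Vv12s0059g01320 had 0.117, 0.103 and 0.101 FPKM in GAG-41B against 4.76, 3.03 and 3.51 FPKM. Peroxidases were higher in 5 of 6 cases, the grapevine GvPx2b gene Vv18s0001g06890 at 116, 110.03 and 106 against 10.05, 10.4 and 8.78 FPKM (log2 fold change 3.50).

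Receptors and signal relays followed the same direction. NBS and other disease resistance proteins, the intracellular receptors for pathogen effectors, were higher in 64 of 82 cases and lower in 17 (median 2.25). Most were weakly expressed. The member with the largest increase, Vv01s0011g00990, had 9.84, 9.42 and 10.02 FPKM in GAG-41B and 0.260, 0.116 and 0.269 in GAG-1103P (log2 fold change 5.01 ± 0.20 (SE), limma adjusted p = 1.05e-10). An RPP13 variant, Vv15s0046g03210, went the other way with 0.227, 0.185 and 0.542 against 8.67, 5.14 and 6.44 FPKM (log2 fold change −4.10). Of the unplaced genes, annotated without regard to their change in a table of which only a part was at hand, 22 of this kind were tested, and 8 were higher, 1 lower and 13 neither (median 0.47). Among all 721 unplaced genes tested, 219 were higher and 198 lower (median 0.00). The 8 of 22 lay near the 34.4% of all genes tested that were higher. Protein kinases formed the largest list, with 183 of 227 higher and 41 lower (median 2.42). Lectin protein kinase Vv03s0038g04170 had 50.9, 60.05 and 56.7 against 0.635, 0.679 and 0.601 FPKM (log2 fold change 6.24), and the leucine-rich repeat kinase Vv18s0001g15720 had 0.369, 0.223 and 0.396 against 11.4, 9.69 and 9.98 FPKM (log2 fold change −4.63). Calcium and calmodulin proteins, which decode calcium signals, rose in 44 of 48 cases and fell in 4. Their sum was between 8421 and 9143 FPKM in GAG-41B and between 837 and 880 FPKM in GAG-1103P. A calmodulin-binding protein, Vv06s0004g00690, went from 0.0615, 0.140 and 0.125 FPKM in GAG-1103P to 16.03, 17.3 and 18.8 FPKM in GAG-41B (log2 fold change 6.41). CALCIUM EXCHANGER 5 (Vv19s0015g01320) had 0.996, 0.825 and 1.34 against 6.78, 7.07 and 7.36 FPKM and was the member with the largest decrease.

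Among the transcription factors, WRKY proteins, a family known for regulating defence genes, were the most one-sided of the 5 families listed. Of 28 members 27 rose and 1 fell (median 3.33), and their sum was between 10723 and 11105 FPKM in GAG-41B and between 1272 and 1325 FPKM in GAG-1103P. VvWRKY18 (Vv04s0008g05760) had 1990.02, 2078 and 2061 FPKM in GAG-41B and 247, 265 and 247 FPKM in GAG-1103P (log2 fold change 3.01 ± 0.05 (SE), limma adjusted p = 2.74e-14). VvWRKY40 (Vv09s0018g00240), its close relative, had 1671, 1868 and 1881 against 128, 143 and 147 FPKM (log2 fold change 3.70). The largest increase was that of WRKY55 (Vv13s0067g03130), at 38.7, 47.7 and 49.4 against 0.420, 0.952 and 0.968 FPKM. WRKY33 (Vv08s0058g00690), the relative of a regulator of the defence against necrotrophic fungi in Arabidopsis and named after its values were seen, had 653, 697 and 675 against 24.05, 26.5 and 27.1 FPKM. WRKY21 (Vv02s0154g00210) was the only member to fall, with 11.9, 8.18 and 7.99 FPKM in GAG-41B and 40.6, 43.1 and 33.4 FPKM in GAG-1103P (log2 fold change −2.07). NAC factors, many of which act in stress and senescence, rose in 17 of 19 cases. VvNAC17 (Vv19s0014g03290) had 1716, 1685 and 1669 against 434, 414 and 406 FPKM (log2 fold change 2.02), and VvNAC39 (Vv07s0031g02610) had 2718, 2505 and 2531 against 669, 619 and 632 FPKM (log2 fold change 2.01). NAC22 (Vv19s0027g00230) ran against the family with 97.96, 97.4 and 92.2 FPKM in GAG-41B and 609, 587 and 594 FPKM in GAG-1103P. AP2/ERF factors, which include the ethylene response factors, were higher in 21 of 29 cases and lower in 7. ERF098 (Vv07s0005g03220) went from 8.03, 10.3 and 12.1 FPKM in GAG-1103P to 742, 983 and 1017 FPKM in GAG-41B (log2 fold change 6.49 ± 0.22 (SE), limma adjusted p = 2.78e-11). Basic helix-loop-helix (bHLH) factors showed the opposite balance, with 9 of 26 higher and 17 lower (median −2.21). Vv05s0020g04780 rose to 155, 176 and 174 from 2.14, 1.98 and 2.47 FPKM, while Vv14s0128g00110 had 1.02, 1.06 and 0.878 FPKM in GAG-41B against 49.8, 49.3 and 43.7 FPKM in GAG-1103P (log2 fold changes 6.20 and −5.46). MYB factors were higher in 17 of 24 cases and lower in 6.

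Hormone genes differed by hormone. All 14 genes listed under jasmonate synthesis by annotation (lipoxygenases, allene oxide synthases and cyclases, 12-oxophytodienoate reductases) were higher in GAG-41B, at a median of 3.42. Whether each of them acts in jasmonate synthesis was not tested. The reductase Vv18s0041g02070, of the family that includes the enzyme reducing the jasmonate precursor, had 17.2, 17.3 and 15.4 FPKM in GAG-41B and 0.190, 0.185 and 0.496 FPKM in GAG-1103P (log2 fold change 5.51 ± 0.28 (SE), limma adjusted p = 1.26e-09). A lipoxygenase, Vv09s0002g01080, named after its values were seen, had 671, 644 and 629 against 34.4, 30.5 and 31.5 FPKM. JAZ repressors, which are induced by jasmonate and hold back its response, rose in 5 of 5 cases (median 5.58). The most abundant, Vv11s0016g00710, had 2691, 2690.1 and 2677 against 216, 203 and 215 FPKM (log2 fold change 3.67 ± 0.04 (SE), limma adjusted p = 7.84e-16). Vv10s0003g03800, with the largest change, had 89.1, 98.9 and 91.2 against 0.245, 0.247 and 1.32 FPKM, and its neighbour Vv10s0003g03790 had 304, 319 and 318 against 3.84, 3.46 and 3.17 FPKM. The other two, Vv09s0002g00890 (797, 739 and 756 against 132, 117 and 118 FPKM) and Vv01s0146g00480 (294, 232 and 243 against 6.18, 4.34 and 5.28 FPKM), did not overlap between the groups either. Ethylene is made by ACC synthase and ACC oxidase, and the 5 listed genes split. ACC oxidase 1 (Vv12s0059g01380) had 5245, 5511 and 5489.9 FPKM in GAG-41B and 149, 166 and 159 FPKM in GAG-1103P (log2 fold change 5.10 ± 0.07 (SE), limma adjusted p = 8.31e-15). ACC synthases Vv02s0025g00360 (11.04, 10.1 and 9.32 against 0.404, 0.510 and 0.401 FPKM) and Vv15s0046g02220 (4.23, 4.10 and 4.17 against 0.436, 0.266 and 0.0407 FPKM) also rose. ACC oxidase 2 (Vv11s0016g02380) had 1.22, 1.31 and 2.05 against 6.43, 7.83 and 6.79 FPKM, and the ACC synthase Vv00s1764g00010 had 18.4, 17.1 and 19.1 against 88.1, 85.7 and 86.8 FPKM. Both of these were lower in GAG-41B, at log2 fold changes of −2.16 and −2.25.

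Genes of ABA synthesis were lower in GAG-41B. VvNCED (Vv02s0087g00930), which cleaves carotenoids in the committed step of ABA synthesis, had 3.41, 2.75 and 2.25 FPKM in GAG-41B and 90.3, 79.5 and 79.8 FPKM in GAG-1103P (log2 fold change −4.86 ± 0.11 (SE), limma adjusted p = 6.36e-13). The second dioxygenase, Vv19s0093g00550, had 24.03, 21.7 and 23.6 against 134, 120.2 and 120.4 FPKM (log2 fold change −2.43), and ABA2 (Vv13s0019g01010), which converts xanthoxin to abscisic aldehyde, had 13.7, 14.4 and 16.4 against 71.1, 77.3 and 69.998 FPKM (log2 fold change −2.29). CYP707A3 (Vv18s0076g00340) encodes the hydroxylase that breaks ABA down. It had 20.9, 23.2 and 23.2 FPKM in GAG-41B and 1.34, 1.49 and 1.24 FPKM in GAG-1103P (log2 fold change 3.95 ± 0.10 (SE), limma adjusted p = 1.51e-12). The 3 synthesis genes were therefore lower and the breakdown gene higher in every GAG-41B library. Of 13 gibberellin genes 8 were higher and 4 lower. GA 20-oxidase 2 genes, which act late in gibberellin synthesis, diverged, with 29.6, 31.2 and 30.4 against 0.907, 1.07 and 0.915 FPKM for Vv19s0140g00140 and 0.287, 0.700 and 0.152 against 4.995, 5.89 and 5.86 FPKM for Vv18s0001g06690. Auxin genes split into 11 higher and 9 lower. An auxin efflux carrier, Vv04s0044g01880, had 1046, 883 and 896 FPKM in GAG-41B and 33.1, 28.3 and 29.6 FPKM in GAG-1103P (log2 fold change 4.95), and SAUR9 (Vv03s0038g00950) had 0.639, 0 and 0.586 against 8.28, 10.2 and 9.13 FPKM. Cytokinin genes were higher in 7 of 9 cases, with cytokinin dehydrogenase 5 (Vv18s0001g13200), which degrades cytokinin, at 13.9, 15.8 and 16.5 against 0.511, 0.308 and 0.231 FPKM. Salicylic acid and EDS1 genes rose in 12 of 14 cases. EDS1 and SAG101 proteins act together in resistance signalling. Their 6 listed genes all rose, at log2 fold changes from 1.82 (Vv05s0077g01750) to 2.91 (Vv17s0000g07400), both named after their values were seen. The methyltransferase Vv18s0001g12900, which converts salicylic acid to its volatile ester, had 71.4, 81.7 and 79.3 against 0.650, 0.459 and 0.491 FPKM (log2 fold change 6.95). Both annotated salicylic acid glucosyltransferases fell, Vv07s0289g00080 to 0.664, 0.536 and 0.470 FPKM from 5.97, 5.91 and 5.78 FPKM.

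Genes of the chloroplast and of leaf ageing moved in both directions. Of 12 light harvesting and photosynthesis genes, GAG-41B had more of 8 and less of 4. LHCII type I CAB-1 (Vv19s0014g00160), a chlorophyll-binding antenna protein, had 23.98, 29.2 and 30.5 FPKM in GAG-41B and 2.09, 2.84 and 2.05 FPKM in GAG-1103P. Photosystem II psbZ (Vv12s0059g01810) had 13.5, 12.4 and 11.1 against 97.5, 88.5 and 81.4 FPKM (log2 fold changes 3.54 and −2.84). Since psbZ is encoded in the plastid, this identifier may hold reads of plastid RNA, which was not tested. In a leaf sample a lower level can come from fewer cells of a type or from less RNA per cell, which cannot be told apart. Of 7 chlorophyll and porphyrin genes 3 rose and 4 fell, and the genes that fell included 2 of chlorophyll breakdown, named after their values were seen. The stay-green protein gene Vv02s0025g04660, whose product removes magnesium from chlorophyll, had 63.01, 59.5 and 61.2 against 478, 484 and 453 FPKM (log2 fold change −2.94 ± 0.04 (SE), limma adjusted p = 1.16e-14). Pheophorbide a oxygenase (Vv06s0061g00790), which opens the ring in the same pathway, had 55.6, 52.3 and 52.2 against 272, 244 and 243 FPKM (log2 fold change −2.24). Both were lower in each GAG-41B library than in any GAG-1103P library. The labels call the leaves non-senescing, and genes annotated with senescence were higher in 9 and lower in 6 of 15 cases. The senescence-associated protein Vv01s0011g05250 rose to 1362, 1175 and 1121 FPKM from 89.6, 70.1 and 67.4 FPKM, and Vv15s0021g00940 of the same annotation fell to 47.01, 38.5 and 36.3 FPKM from 1331, 1173 and 1139 FPKM. This word in an annotation therefore marked no common direction (log2 fold changes 4.01 and −4.91).

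Clock and photoperiod genes, which cycle through the day, were higher in 7 and lower in 5 of 12 cases. The pseudo-response regulator APRR9 (Vv15s0048g02540), a repressor in the morning part of the plant clock, had 239, 259 and 264 FPKM in GAG-41B and 35.5, 36.4 and 36.7 FPKM in GAG-1103P (log2 fold change 2.81 ± 0.07 (SE), limma adjusted p = 8.10e-13). GIGANTEA (Vv18s0157g00020) had 301, 276 and 273 against 45.8, 44.1 and 43.3 FPKM, and EARLY FLOWERING 4 (Vv11s0016g01370), an evening gene, had 9.47, 15.8 and 14.4 against 54.95, 55.5 and 59.8 FPKM. These last 2 genes were named after their values were seen, and their groups did not overlap (log2 fold changes 2.67 and −2.13). CONSTANS-LIKE 16 (Vv17s0000g03740) was listed at 0 in GAG-41B replicates B and C and at 19.03 FPKM in A, against 277, 229.9 and 446 FPKM in GAG-1103P. The hour at which each combination was sampled is not given in the sources used here, and its part in these values was not tested.

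The listed carbon genes that release or move sugar were higher in GAG-41B. Both lists hold only members of the study's table of changed genes, so that other genes of these families are not covered. All 4 starch breakdown genes were higher, among them the maltohydrolase Vv02s0012g00170 with 5109, 6230.4 and 6094 against 966, 1129 and 1118 FPKM (log2 fold change 2.44). The alpha-amylases Vv03s0063g00430 and Vv03s0063g00400 had 19.4, 12.3 and 11.6 and 115, 122 and 129 FPKM in GAG-41B against 1.27, 1.01 and 0.789 and 21.9, 19.99 and 20.4 FPKM in GAG-1103P, respectively. The beta-amylase Vv12s0059g02670 had 14.2, 18.6 and 18.01 against 3.65, 4.10 and 4.16 FPKM. All 7 sugar transporters, invertases and sucrose synthases were higher as well. VvSTP13 (Vv05s0020g03140), a hexose carrier of the plasma membrane, had 2247, 2076 and 2066 FPKM in GAG-41B and 89.4, 80.9 and 81.8 FPKM in GAG-1103P (log2 fold change 4.66 ± 0.16 (SE), limma adjusted p = 2.04e-11). Galactinol synthases, which start the raffinose family of stress sugars, split by copy. Vv14s0066g02350 rose to 173, 170.004 and 169 FPKM from 13.5, 12.2 and 12.1 FPKM and Vv07s0005g01970 to 72.1, 76.8 and 74.2 from 7.89, 9.002 and 8.92 FPKM. The most abundant copy, Vv01s0127g00470, fell to 955, 898 and 895 FPKM from 4009, 3619 and 3428 FPKM (log2 fold change −2.01), as did Vv05s0077g00430 (12.5, 9.01 and 11.6 against 75.6, 73.2 and 79.3 FPKM) and Vv05s0020g00330 (0.0842, 0 and 0.163 against 0.723, 1.02 and 1.09 FPKM). A trehalose-6-phosphate phosphatase, Vv16s0022g00660, had 1247, 1181 and 1176 against 206, 186 and 191 FPKM (log2 fold change 2.63). Nitrogen and amino acid genes were evenly divided, 10 higher and 10 lower. Glutamate decarboxylase Vv01s0011g06600, which makes GABA, had 222, 239.9 and 242 FPKM in GAG-41B against 11.7, 11.02 and 12.3 FPKM in GAG-1103P (log2 fold change 4.32).

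Among transport and metal genes, the ABC transporters were higher in GAG-41B more often than the 63.2% of the table the lists were drawn from. The iron and metal list and the phosphate list lay near that share. ABC transporters were higher in 16 of 18 cases, with the pleiotropic drug resistance carrier Vv09s0002g05490 at 29.2, 28.9 and 29.2 against 0.821, 0.751 and 0.878 FPKM (log2 fold change 4.99). Of 11 iron and metal genes 8 rose and 3 fell. The heavy-metal-associated domain protein Vv12s0057g01430 had 3537, 3469 and 3664 FPKM in GAG-41B and 248, 272 and 268 FPKM in GAG-1103P, while Vv16s0050g00140 of the same annotation had 12.4, 13.9 and 14.1 against 111, 123 and 141 FPKM. Phosphate genes split by kind, as 4 transporters rose and 3 purple acid phosphatases fell. The mitochondrial phosphate transporter Vv14s0068g01250 had 1488, 1532 and 1518 against 77.7, 88.7 and 82.4 FPKM (log2 fold change 4.19), and purple acid phosphatase 32 (Vv18s0001g13340) had 7.96, 7.29 and 6.66 against 67.5, 64.2 and 62.1 FPKM (log2 fold change −3.13). Both aquaporins, which are water channels, were higher by less than 4-fold. Vv13s0067g00220 had 89.3, 90.5 and 90.2 against 29.8, 28.8 and 24.5 FPKM (log2 fold change 1.70). Vv15s0046g02420 had 167, 174 and 172 against 125, 133 and 132 FPKM (log2 fold change 0.39), a call that was lost when all libraries were given the same FPKM total (log2 fold change −0.0079, limma adjusted p = 0.915) and under quantile normalization (limma adjusted p = 0.581).

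Genes of the cell wall, of growth and of the leaf surface were divided. Xyloglucan and expansin genes were higher in 16 of 23 cases and lower in 4. Their higher share lay near the 63.2% of the table the lists were drawn from. Expansin-like B1 (Vv02s0012g00830) had 79.4, 70.8 and 66.2 FPKM in GAG-41B and 2.13, 1.97 and 2.84 FPKM in GAG-1103P, whereas the expansin EXPA15 (Vv01s0026g02620) had 0.341, 0.706 and 0.803 against 34.9, 35.5 and 33.5 FPKM (log2 fold changes 4.92 and −5.66). Pectin genes were higher in 8 and lower in 9 of 17 cases, and their sum was between 102 and 124 FPKM in GAG-41B and between 927 and 991 FPKM in GAG-1103P. The pectin methylesterase inhibitor Vv16s0022g00890 contributed most to the gap, with 18.8, 12.6 and 17.4 against 393, 415 and 382 FPKM (log2 fold change −4.62 ± 0.11 (SE), limma adjusted p = 7.30e-13). Of 22 cell division and cytoskeleton genes 14 rose, also near that share, and 6 fell. Among those that fell was histone H2A.4 (Vv00s0753g00020) with 3.43, 3.55 and 5.19 against 48.03, 47.8 and 47.5 FPKM. Wax and cuticle genes were higher in 6 and lower in 8 of 14 cases, the lipid transfer protein Vv01s0011g06590 at 3.33, 3.33 and 2.43 against 35.7, 37.97 and 37.02 FPKM. The epidermal hair markers were by annotation regulators of epidermal cell fate (WEREWOLF, TRIPTYCHON and CAPRICE), and no measure of the number of hair cells. They were higher in 1 and lower in 5 of 6 cases (median −3.24). CAPRICE (Vv10s0116g01760), a small MYB protein that sets hair cell fate in Arabidopsis, had 2.10, 6.48 and 2.11 FPKM in GAG-41B and 53.005, 52.6 and 47.7 FPKM in GAG-1103P (log2 fold change −4.01 ± 0.35 (SE), limma adjusted p = 3.36e-07). WEREWOLF (Vv17s0000g08480) had 0.239, 0.142 and 0 against 2.47, 2.02 and 1.54 FPKM, whereas a second gene of that annotation, Vv14s0066g01220, was the only higher member, with 1.19, 1.83 and 1.93 against 0.453, 0.286 and 0.204 FPKM (log2 fold change 2.09). The most abundant CAPRICE copies were Vv12s0059g02360, at 39.3, 47.4 and 48.2 against 388, 370.2 and 409 FPKM, and Vv10s0116g00500, at 15.9, 15.99 and 17.3 against 203, 177 and 171 FPKM, both named after their values were seen. The 3 listed vascular and phloem markers, of fasciclin and PP2 annotation, were low in both groups. Laccases, also planned as markers of this kind, were higher in 16 of 16 cases, as given above. Cellulose synthases were planned as well but were not listed as markers, and their values are not given. The fasciclin genes Vv01s0011g06640 and Vv12s0028g02990 had 2.38, 1.61 and 2.19 and 0, 0.229 and 0.112 FPKM in GAG-41B against 0.247, 0.174 and 0.0930 and 1.01, 0.774 and 1.16 FPKM in GAG-1103P, and phloem protein PP2-B1 (Vv00s0214g00040) had 0.377, 0.371 and 0.217 against 1.55, 1.40 and 1.07 FPKM. Genes of both marker lists thus differed between the groups, in both directions. They do not measure the share of a cell type, and the part of a different tissue make-up in the other results was not tested.

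A 4-fold difference between the combinations can come from either side, and the remaining 3 combinations were used to place it. GAG-41B differed from their mean in 13927 genes (65.2% of those tested, 32.9% higher and 32.3% lower) and GAG-1103P in 10715 (50.2%, 24.8% higher and 25.4% lower). At 4-fold, GAG-41B was higher in 903 genes (4.23%) and lower in 570 (2.67%), together 6.89% of those tested, against 60 (0.281%) higher and 362 (1.69%) lower in GAG-1103P, together 1.98%. These comparisons share their libraries with GAG-41B vs. GAG-1103P and with each other. For the stilbene synthases both sides contributed, since 39 of 40 were higher in GAG-41B and 40 of 40 lower in GAG-1103P than the mean of the 3 others. VvSTS16 (Vv16s0100g00920) had means of 42.3, 20.3 and 15.2 FPKM in GAG-KOB, GAG-3309C and GAG-17-37, between the 309.8 FPKM of GAG-41B and the 3.30 FPKM of GAG-1103P. VvNCED (Vv02s0087g00930) was ordered the other way around, with 14.04, 20.7 and 33.2 FPKM in the same 3 combinations between 2.80 FPKM in GAG-41B and 83.2 FPKM in GAG-1103P.

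Other groups stood apart on 1 side. PR10 and Bet v I genes were lower in GAG-1103P than the mean of the 3 others in 7 of 8 cases, while against the same mean 5 were higher and 2 lower in GAG-41B. Vv05s0077g01580, which follows a run of these genes by identifier and is not in the list, had more FPKM than any of them and is given below. Vv05s0077g01570, named after its values were seen, was the most abundant of the list. It had 5454, 5663 and 5682 FPKM in GAG-41B and 1122, 1214 and 1137 FPKM in GAG-1103P. Its means in GAG-KOB, GAG-3309C and GAG-17-37 were 4383, 7795 and 5183 FPKM, so that GAG-1103P was the lowest combination. Thaumatins and osmotins (6 higher and 5 lower in GAG-41B, 2 higher and 8 lower in GAG-1103P) and beta-1,3-glucanases (6 and 5 against 2 and 9) gave a like picture. Beta-1,3-glucanase Vv06s0061g00100, also named after its values were seen, had 139, 115 and 118 FPKM in GAG-41B and 70.4, 60.2 and 57.6 FPKM in GAG-1103P, both below the means of 331, 737 and 532 FPKM of GAG-KOB, GAG-3309C and GAG-17-37. VvWRKY18 (Vv04s0008g05760) showed the reverse. GAG-KOB, GAG-3309C and GAG-17-37 had means of 349.8, 257 and 250.2 FPKM, near the 253 FPKM of GAG-1103P and far from the 2043 FPKM of GAG-41B. ACC oxidase 1 (Vv12s0059g01380) had 1097, 303 and 297 FPKM there, between the 5415 FPKM of GAG-41B and the 158 FPKM of GAG-1103P. Terpene synthases, 6 of 10 higher in GAG-41B vs. GAG-1103P, were higher in 2 and lower in 7 cases when GAG-41B was compared with the mean of the 3 others.

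**Figure D3:**
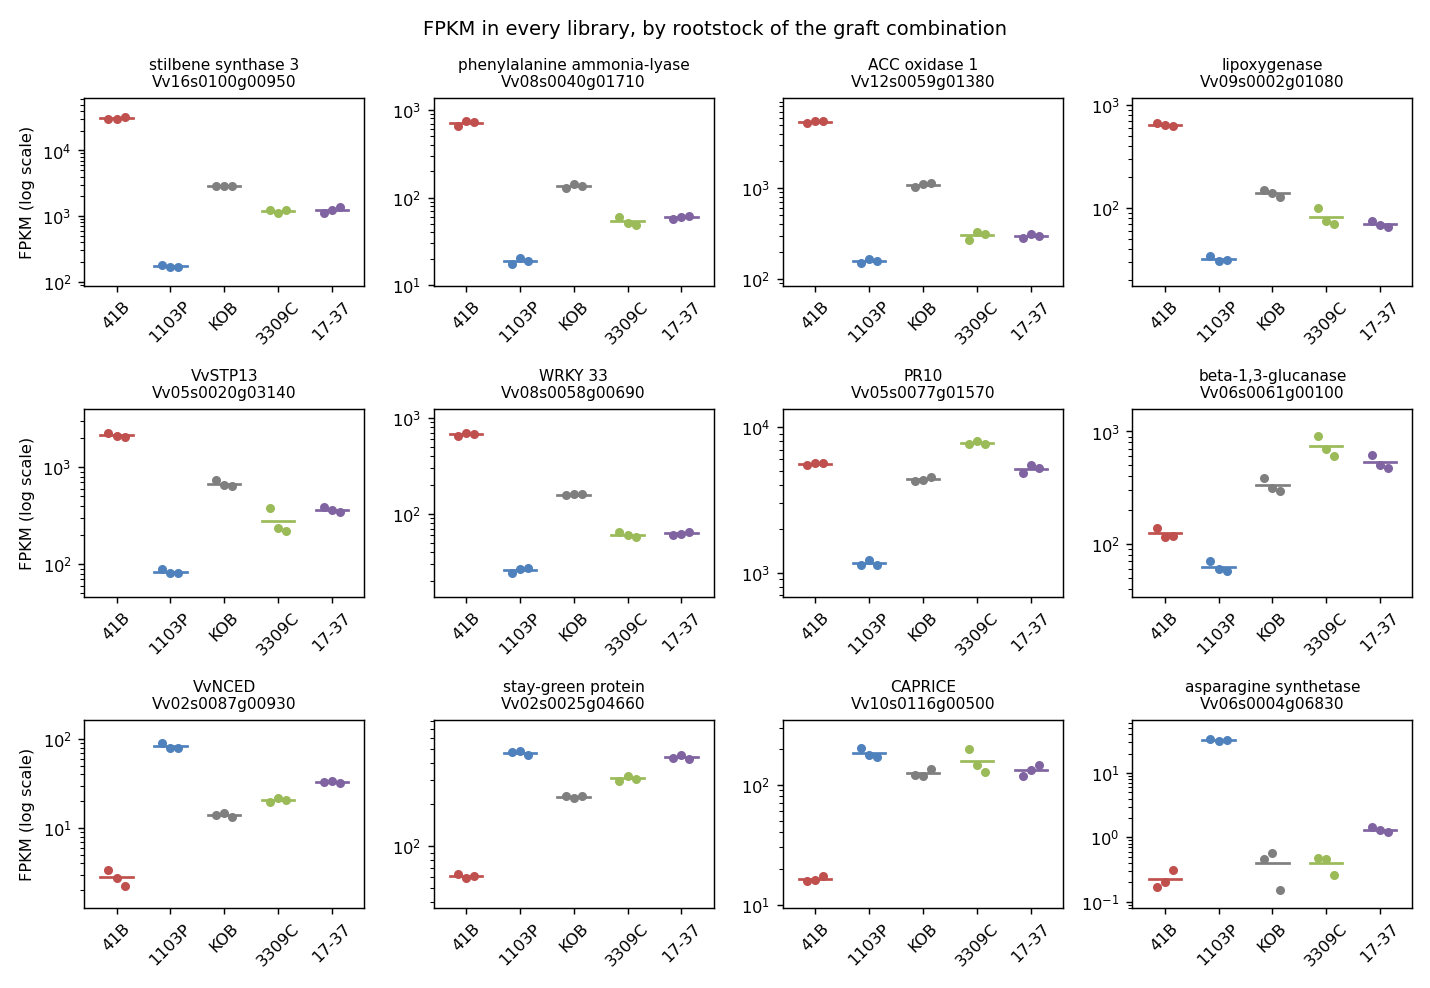
FPKM of 12 genes on a log scale in the 15 libraries, 1 point per library, with a line at the mean of each combination, named by its rootstock. Vv16s0100g00950, PAL, ACC oxidase 1, lipoxygenase, VvSTP13 and WRKY 33 are highest in GAG-41B and lowest in GAG-1103P, PR10 and beta-1,3-glucanase are lowest in GAG-1103P without being highest in GAG-41B, and VvNCED, the stay-green protein, CAPRICE and asparagine synthetase are lowest in GAG-41B and highest in GAG-1103P.

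**Figure D4:**
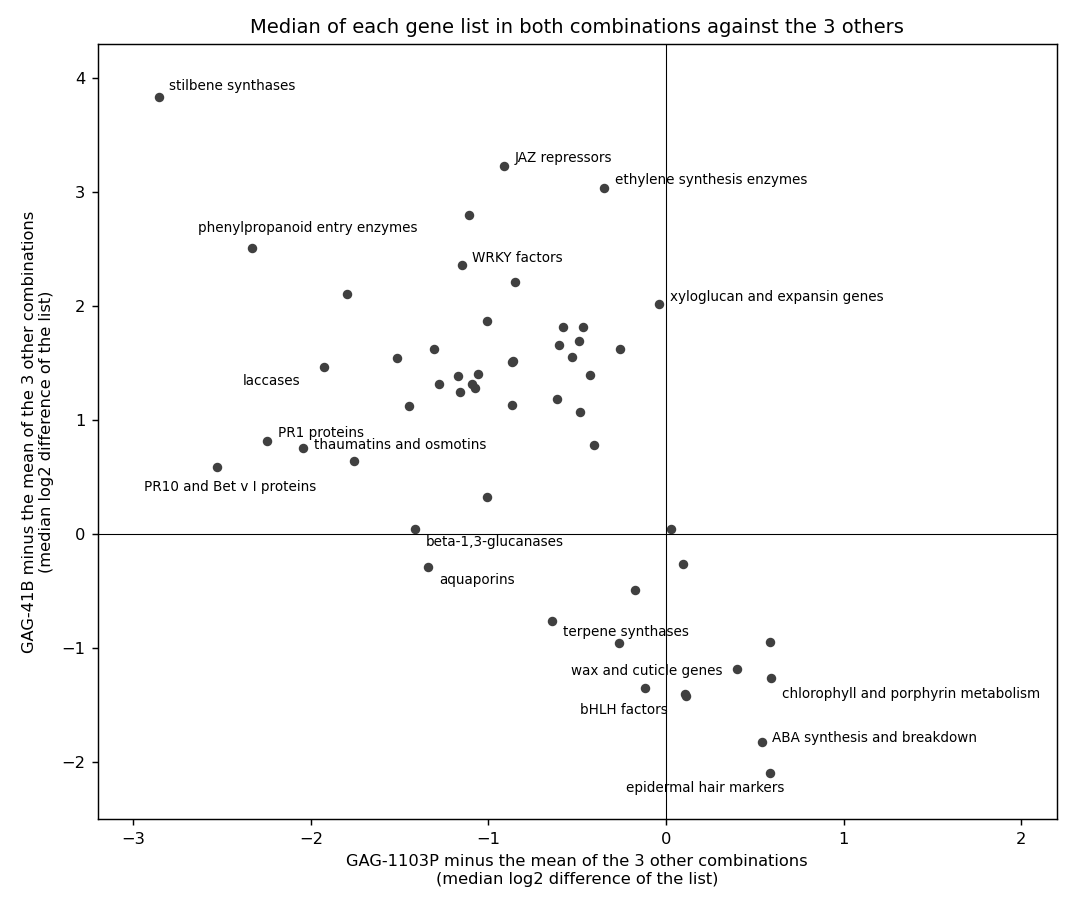
Median log2 difference of each gene list in GAG-41B (vertical axis) and in GAG-1103P (horizontal axis) from the mean of the 3 other combinations, 1 point per list. Stilbene synthases lie at 3.83 and −2.86, PR10 and Bet v I proteins at 0.59 and −2.53, and epidermal hair markers at −2.09 and 0.59; both axes share the 3 reference combinations.

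A few abundant genes carried much of the difference in FPKM. The sum of FPKM per library was higher in GAG-41B by 538196 on average, and 15.4% of this came from Vv19s0014g02740, a gene with no annotation at hand, at 197881, 213207 and 210645 FPKM in GAG-41B and 118906, 134006 and 119725 FPKM in GAG-1103P. Its log2 fold change was 0.74 (limma adjusted p = 0.00276), a call lost without the filter on low values, in a fit of the 6 libraries alone and under quantile normalization. Stilbene synthases gave a further 10.3% of the sum difference. The next largest gains were those of Vv16s0100g00950, described above, and Vv07s0005g00660, at 29921, 30235 and 29102 against 11137, 11199.5 and 10941 FPKM (log2 fold change 1.42). Vv05s0077g01580 had 54057, 54464 and 54662 against 39898, 39863 and 38339 FPKM. It was listed at 0 in the 3 GAG-3309C libraries, which can be a failed estimate in so abundant a gene. Its identifier follows the run of PR10 and Bet v I genes from Vv05s0077g01530 to Vv05s0077g01570, but it is not a member of that list. Its call was lost in a fit of the 6 libraries alone, under quantile normalization and with the same FPKM total (log2 fold change 0.06, limma adjusted p = 0.208). Large gains that did not pass the test were those of Vv15s0048g02420 (9799, 7294 and 4745 against 3411, 0 and 1761 FPKM) and Vv07s0031g01060 (7349, 7294 and 4745 against 0, 1645 and 1761 FPKM), which had equal values in GAG-41B B and C and in GAG-1103P C. Their limma adjusted p-values were 0.165 and 0.166, and with B and C alone Vv07s0031g01060 passed (log2 fold change 1.79, limma adjusted p = 0.0016). On the other side, Vv03s0038g01510, annotated as an unknown protein, lost most, with 9569, 6303 and 7010.1 FPKM in GAG-41B and 38144, 31637 and 29742 FPKM in GAG-1103P (log2 fold change −2.14). The gamma-thionin precursor Vv01s0010g02030, a small defence peptide, had 1389, 1192 and 1123 against 6377, 5847 and 5336 FPKM (log2 fold change −2.25). Vv19s0090g01340, for which the annotation found no hit, had 74.7, 78.4 and 63.1 against 4521, 4651 and 4211 FPKM while the means in GAG-KOB, GAG-3309C and GAG-17-37, 308, 415 and 837 FPKM, lay in between. Both reference genes of the RT-qPCR changed little. VvACT1 (Vv04s0044g00580) had 898, 870.5 and 868 against 1007, 937 and 921 FPKM (log2 fold change −0.12 ± 0.05 (SE), limma adjusted p = 0.0416) and VvUBI (Vv16s0098g01190) had 942, 938 and 938 against 1019.9, 1095 and 1079 FPKM (log2 fold change −0.18 ± 0.06 (SE), limma adjusted p = 0.0159).

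Some neighbouring genes changed together. Counting tested genes in identifier order, 736 of the 1869 4-fold higher genes lay in 284 runs of at least 2. Of these runs, 31 held at least 4 genes. The 4-fold higher genes were also the larger set, and how many runs would form in a random order of genes was not calculated. Among the 1024 4-fold lower genes there were 99 runs of at least 2, with 223 genes, and a single run of 4 or more. That run held 11 genes of chromosome 12 between Vv12s0057g00060 and Vv12s0057g00190, 6 of them annotated as wound-induced and 1 as wound-responsive. Vv12s0057g00090 had 1.64, 6.99 and 4.87 FPKM in GAG-41B and 606, 691 and 698 FPKM in GAG-1103P (log2 fold change −7.39 ± 0.36 (SE), limma adjusted p = 8.70e-10), and Vv12s0057g00170 had 0.800, 0.999 and 0.975 against 198, 250.1 and 260.4 FPKM (log2 fold change −7.84). Means of Vv12s0057g00090 were 518, 1018 and 685 FPKM in GAG-KOB, GAG-3309C and GAG-17-37, so that GAG-41B was the combination apart. The mildest change of the run was a log2 fold change of −3.32, in Vv12s0057g00060 (30.1, 24.2 and 23.6 against 254, 263 and 261 FPKM). Higher runs included 8 genes of chromosome 10 around the stilbene synthases, 6 of chromosome 1 from Vv01s0010g02930 to Vv01s0010g02980 with calmodulin and EF-hand annotations, 5 PAL genes of chromosome 16 and 5 laccases of chromosome 18. These genes were chosen after their values were seen, and members of such clusters can share reads.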

How the data were processed

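RNA-seq libraries of poly-A RNA (100 bp single reads) from scion leaves were compared between GAG-41B and GAG-1103P, with 3 libraries each. Per the labels and the study's methods, the authors called reads with CASAVA 1.8.2, aligned them to the PN40024 genome with TopHat2 2.0.14 and Bowtie2 2.2.4, and calculated FPKM with Cufflinks 2.2.0 under geometric scaling between libraries. DESeq 1.6.3 is also named in the submitters' processing notes. The setting for reads that match several genes is not given in the sources used here, so that FPKM of near-identical copies are uncertain, and the scaling leaves library sums unequal. The deposited FPKM table holds no counts. The study lists the mapped reads of each library, which were not used here, and no counting interval was given.

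In the analysis, values were transformed to log2(FPKM + 0.1), genes with a mean under 0.1 FPKM over the 15 libraries were left out, and all 15 libraries were fitted with limma 3.58.1 (trend, R 4.3.3), with the combination as the only factor. The contrasts were GAG-41B vs. GAG-1103P and each of both against the mean of the 3 other combinations. P-values were adjusted by the Benjamini-Hochberg procedure, and a 4-fold limit was a log2 fold change of 2. Limma was used because the values are not counts. No result of a test of the procedure on simulated data is given here, so that its error rates on FPKM values are not shown. With 3 libraries a group, an exact permutation test of a single gene cannot go below a two-sided p of 0.1, so none was used. The plants of a pool stood in 1 block, so that p-values measure the spread between pools of that block.

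Members and gene lists were chosen with earlier results of these data known. Lists were made from annotation words in the study's table of genes with a 4-fold change, and from a part of its table of all genes for unplaced genes. Genes were named if the study names their identifier, if they had the largest increase or decrease of a list among DEGs without overlap and with 1 FPKM or more as the mean of the 6 libraries, if their list had at most 5 members, or if they were among the 10 largest gains or losses of FPKM. Other genes were named after their values were seen, which is said beside most of them. Alternatives were pseudocounts of 1 and 0.01, other filters, other scalings, a fit of the 6 libraries alone, no variance trend, a replicate block, an adjusted p of 0.005, leaving out each of the 6 libraries, and B and C alone, the last added after seeing the data. No identifier matched the RefSeq gene table at hand, so no coordinates or sequences are given. Values were tabulated and plotted with Python 3.11.15, pandas 2.3.3, numpy 2.4.6 and matplotlib 3.10.9.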

Additional observations from a re-analysis of the deposited data

How the results depend on the processing

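The reads behind a single value were not recovered. Of the comparisons of the 141 named genes under the alternatives, 2507 kept their direction and their side of the threshold, 19 lost the call, 4 gained it and 1 reversed (aquaporin Vv15s0046g02420, log2 fold change −0.0079 with the same FPKM total against 0.39). The named genes that lost it under some alternative were VvACT1, VvUBI, Vv19s0014g02740, Vv05s0077g01580 and Vv15s0046g02420. Counts of list members moved by over 1.5 times mainly with a mean of at least 1 FPKM, which left fewer members to test. The count of higher members then went from 6 to 3 for terpene synthases, 5 to 3 for peroxidases, 8 to 5 for photosynthesis, 7 to 4 for sugar transport, 8 to 4 for pectin and 14 to 7 for cell division genes, that of lower members from 17 to 10 for NBS proteins, and those of higher transposon-derived, vascular and epidermal hair genes and of lower chitinase, trehalose and vascular genes to 0. Aquaporins had 1 higher member in place of 2 with the same FPKM total and under quantile normalization. With a pseudocount of 1, which shrinks fold changes of low genes, 497 4-fold DEGs were lower in GAG-41B vs. GAG-1103P, 585 were higher and 243 lower in GAG-41B against the 3 other combinations, and 20 were higher and 143 lower in GAG-1103P against them. A pseudocount of 0.01 gave 586 lower in the last comparison, and a mean of at least 1 FPKM, with fewer genes tested, gave 32 higher. With the same FPKM total, 4904 DEGs were higher and 10538 lower in GAG-41B vs. GAG-1103P, 1395 and 1623 of them at 4-fold, and against the 3 others GAG-41B had 3801 higher and 11419 lower, 575 and 960 at 4-fold. This scaling moves every gene by a constant per library, and it shifted the median over all genes by −0.38, the same median by 0.06 and quantile normalization by −0.13. At an adjusted p of 0.005, GAG-1103P had 3411 DEGs higher than the 3 others and 30 at 4-fold. Without 1 of the 6 libraries, 6927 to 7118 DEGs were higher and 6986 to 7155 lower in GAG-41B vs. GAG-1103P, with 1860 to 1897 and 1014 to 1046 at 4-fold. GAG-41B against the 3 others then gave 6529 to 7040 higher and 6400 to 6897 lower, 901 to 936 and 570 to 596 at 4-fold, and GAG-1103P gave 4460 to 5370 higher and 4690 to 5459 lower, 57 to 82 and 352 to 372 at 4-fold. Between GAG-41B and GAG-1103P, deviations from the group means correlated at 0.02, −0.09 and −0.003 for the same letter over 17852 genes. Not every library correlated best with its own letter. Over all combinations the correlations ran from −0.09 to 0.20 for the same letter and from −0.13 to 0.12 for different letters. Low values of the other A libraries followed the steps of GAG-1103P A in 54.1 to 75.8% of the genes shared. What libraries of the same letter have in common is not given in the sources used here. With a replicate block 7766 DEGs were higher and 7836 lower, 1866 and 1028 at 4-fold.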

Other observations

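Heat shock genes were split by kind. All 5 annotated heat shock transcription factors were higher in GAG-41B, whereas small heat shock proteins of several classes, HSP101 and a DNAJ protein, which keep other proteins folded under heat, made up the 7 lower members of a list of 14. Heat shock factor B3 (Vv08s0007g08750) had 169.6, 201 and 198 FPKM in GAG-41B and 9.97, 12.9 and 12.5 FPKM in GAG-1103P (log2 fold change 3.995 ± 0.13 (SE), limma adjusted p = 1.69e-11). The 17.4 kDa class I protein Vv06s0004g05770 had 1.509, 0.562 and 1.64 against 16.9, 14.8 and 20.3 FPKM (log2 fold change −3.82), and HSP101 (Vv17s0000g07190) had 4.53, 5.58 and 5.37 against 24.2, 28.3 and 27.9 FPKM (log2 fold change −2.36). In each of these genes the groups did not overlap. A gene annotated only as heat shock protein, Vv01s0026g00910, ran with the factors at 808, 847 and 898 against 47.1, 46.9 and 57.9 FPKM.

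Dehydrins and LEA proteins, which accumulate in drying cells, were higher in 5 of 6 cases, but the most abundant member fell. Dehydrin 1b (Vv04s0023g02480) had 70.9, 81.5 and 77.8 FPKM in GAG-41B and 559, 668 and 637 FPKM in GAG-1103P (log2 fold change −3.01 ± 0.10 (SE), limma adjusted p = 2.27e-11). Its means of 222, 128 and 369 FPKM in GAG-KOB, GAG-3309C and GAG-17-37 lay between both.

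Pentatricopeptide repeat proteins, which process RNA in chloroplasts and mitochondria, had the most uneven balance towards GAG-1103P of the functional categories in the study's table of changed genes. Of 33 tested, 4 were higher and 29 lower in GAG-41B (median −2.03), whereas the signal transduction category had 210 higher and 50 lower of 263. As for the lists, the table was made from these libraries, so these counts only describe it. Transposon-derived genes, 4 in all, were higher in 1 and lower in 3 cases. These genes and groups were chosen after their values were seen.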
